A study of Mus musculus with 6 samples.

Results

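A set of 10 genes read out the unfolded protein response and the integrated stress response in this material. The set was Atf4, Ddit3, Chac1, Trib3, Asns, Hspa5, Xbp1, Herpud1, Sdf2l1 and Dnajb9, taken by gene symbol from a table of 29595 genes, and all 10 were measured and passed the filter on low counts. The cells were TKPTS, a mouse kidney proximal tubule line. They received either pcDNA3.1-Hnf3a-Flag, a plasmid that carries Flag-tagged HNF3α (gene symbol Foxa1, a forkhead transcription factor; the Hnf3a group, n = 3 libraries), or pcDNA3.1-Flag without that insert (the pcDNA group, n = 3 libraries). RNA was taken 24 hours after transfection. Both groups were thus transfected with a plasmid, and cells without any plasmid were not analysed here. The pcDNA3.1 backbone drives its insert from a strong viral promoter, and the share of cells that took up the plasmid is not given in the sources used here. The question asked of the 10 genes was whether expression of Foxa1 from a plasmid was accompanied by a transcriptional stress response. The insert encodes a transcription factor and the control plasmid has no insert. A load from making the protein and gene regulation by HNF3α therefore cannot be told apart here. The amount of HNF3α protein was not measured in these data.

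The endoplasmic reticulum folds secreted and membrane proteins, and an excess of unfolded protein there is sensed by the membrane proteins IRE1, PERK and ATF6. IRE1 splices the Xbp1 messenger RNA, ATF6 is cut to release a transcription factor, and the targets of XBP1 and ATF6 are chaperones and factors that dispose of misfolded proteins. PERK belongs to a group of kinases that phosphorylate the translation factor eIF2α when cells meet misfolded protein, amino acid shortage, viral RNA or a lack of haem. This lowers protein synthesis in general while favouring translation of the transcription factor ATF4, whose targets serve amino acid supply and, when stress lasts, cell death through CHOP. HNF3α is a nuclear protein and does not pass through the endoplasmic reticulum. The values here are gene-level messenger RNA, so eIF2α phosphorylation, translation of Atf4 and splicing of Xbp1 were not measured.

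The binding elements of these pathways that lie in the promoters of the genes are shown because elements of these kinds are known to link genes to the 2 responses. All 10 genes matched a RefSeq promoter window (GRCm38.p6, 250 bases before to 50 after the start). The search covered both strands of 32851 windows. The endoplasmic reticulum stress element (ERSE), CCAAT and CCACG with 9 bases between them, was present in 0.119% of windows, and among the 10 genes in that of Hspa5, 65 bases before the start. Its second form (ERSE-II), ATTGG and CCACG with 1 base between them, was present in 0.0365% of windows and in that of Herpud1, 52 bases before the start. The C/EBP-ATF response element bound by ATF4, TGATGNAA, was present in 3.97% of windows and in 4 of the 10, those of Chac1, Trib3, Asns and Herpud1. None of the 10 windows held the letters TGACGTGG, the XBP1 element (0.676% of windows), or the forkhead core TGTTTAC (3.65% of windows). A match describes letters only, and a missing match says only that those letters are not in that window. The stretches are written along the gene's own strand with the element in capitals. In Herpud1 and Chac1 the ATF4 element lies on the opposite strand, so its capitals read TTGCATCA. The stretch of Asns, like that of Hspa5, lies inside the annotated gene span. They lie at chr2:34772019-34772048 (plus strand, Hspa5), chr8:94386307-94386397 (plus strand, Herpud1, holding both elements), chr2:119351039-119351066 (plus strand, Chac1) and chr6:7693214-7693243 (minus strand, Asns).
Hspa5: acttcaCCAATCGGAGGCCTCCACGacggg
Herpud1: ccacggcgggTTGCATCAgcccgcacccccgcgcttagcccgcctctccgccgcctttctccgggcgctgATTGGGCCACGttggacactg
Chac1: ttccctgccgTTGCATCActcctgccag
Asns: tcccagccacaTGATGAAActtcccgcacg

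The libraries held between 60473818 and 71154667 estimated counts, in which 1 sequenced fragment was worth about 4 counts, and 17824 genes passed the filter on low counts. Foxa1 checked the labels. Its level was 334.2, 295.5 and 284.2 FPKM (fragments per kilobase of transcript, scaled to library size) in Hnf3a replicates 1 to 3 and 9.49, 9.54 and 9.96 FPKM in pcDNA replicates 1 to 3. This was a 31.3-fold difference (log2 fold change 4.97, SE 0.067, edgeR adjusted p = 5.99e-10), in which plasmid and chromosomal transcripts are not separated. The plasmid gene thus reached 304.6 ± 26.2 FPKM (SD, n = 3), above any of the 10 stress genes on the same per-length scale. The 12 measured proximal tubule markers were uneven. Their summed level was 70.2 to 77.5 FPKM per library, 10 had enough counts to be tested and 2 were at or under the floor of 12 counts in every library. Pax8, a kidney epithelial factor, was at 29.7 FPKM in the Hnf3a and 29.2 FPKM in the pcDNA group, whereas the apical receptor genes Lrp2 (0.034 and 0.026 FPKM) and Cubn (0.048 and 0.031 FPKM) were near 0. None of the 10 tested proximal tubule markers passed by edgeR, DESeq2 or limma (2 at an unadjusted edgeR p under 0.05). By edgeR 4 of 7 epithelial markers passed (57.1%, against 3.17% of all tested genes), Krt18 and Krt19 higher and Cldn1 and Tjp1 lower in the Hnf3a group. DESeq2 called the same 4, against 4.6% of all tested genes. Limma called 3, leaving out Tjp1, with either pseudocount (0.1 or 1), against 1.32% and 1.3% of all tested genes. Hnf3a replicates 2 and 3 stood apart in fibroblast markers, whose summed level was 11.9 and 13.3 FPKM there against 2.8 to 4.0 FPKM in the other 4 libraries. The macrophage and blood cell markers summed to 18.4 and 20.9 FPKM in those 2 libraries and to 12.5 to 14.4 FPKM in the others. No fibroblast marker was at 0 in every library. Neither of these lists held a gene past the edgeR threshold (0 of 6 and 0 of 7 tested, against 3.17% of all tested genes). At an unadjusted p under 0.05 there were 6 and 3, against 13.5% of all tested genes. Only 6 of 10 fibroblast and 7 of 12 macrophage and blood cell markers passed the count filter. All of those lay on the higher side, with median log2 fold changes of 3.83 and 1.45. A gene low in the pcDNA group can pass the filter through the Hnf3a libraries, so these counts are partly fixed by the filter. DESeq2 called 3 markers of the fibroblast list, Col1a1, Col1a2 and Col3a1, where it called 4.6% of all tested genes. The part of these markers in the results below was not tested, so the results are also given without those 2 libraries where they change. In bulk RNA, fewer cells expressing a gene and less RNA per cell cannot be told apart. Nothing in the labels says whether replicates were separate cultures, so the p-values measure the spread between these libraries, which may be technical.

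None of the 10 stress genes passed the threshold between the Hnf3a and pcDNA groups (edgeR's quasi-likelihood test, adjusted p under 0.05), where 3.17% of all tested genes did (1.04% higher and 2.13% lower in the Hnf3a group). One of them, Chac1, had an unadjusted p under 0.05, as did 13.5% of all tested genes. The count was also 0 of 10 by DESeq2 (background 4.6%) and by limma on log2(FPKM + 0.1) and log2(FPKM + 1) (backgrounds 1.32% and 1.3%). Fitted differences were small. They ran from −0.076 for Atf4 to 0.17 for Chac1 on the log2 scale, with 4 genes on the higher side, 6 on the lower side and a median of −0.012, against a median of 0.001 over all tested genes. Every 95% interval lay between −0.18 and 0.32 on the log2 scale, that is, between 0.883 and 1.25 times the pcDNA level. An interval inside 0.5 in both directions was found for 10 of 10 of these genes and for 61.7% of all tested genes. These shares are not matched for level, and the 10 genes lay at or above the 61.5 percentile of tested genes by FPKM. All 18 cytosolic heat shock genes of a comparison list below also had such an interval, and 5 of those 18 passed the threshold.

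**Figure D1:**
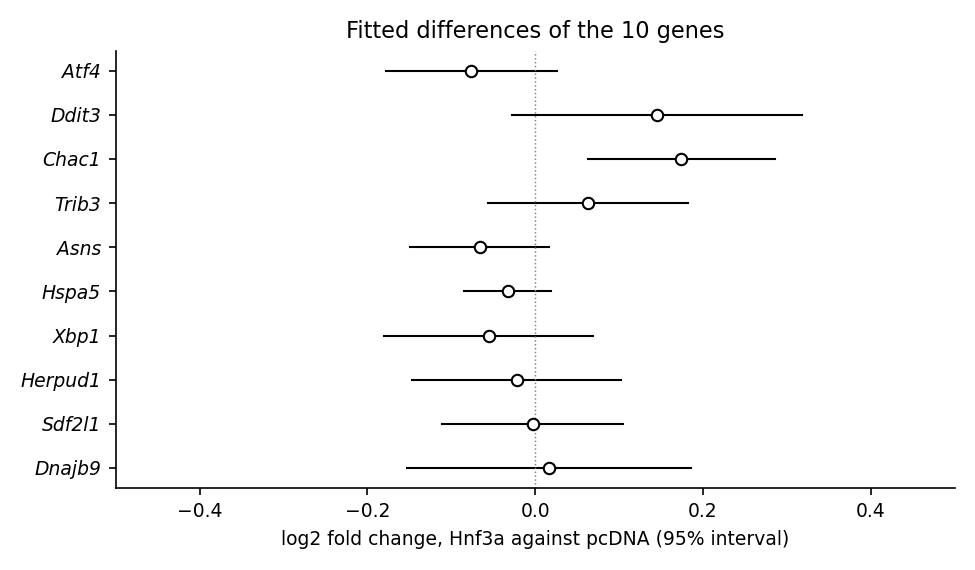
Fitted log2 fold change (circles) of each of the 10 genes, Hnf3a against pcDNA (3 libraries each), with the 95% interval of edgeR's fit (lines). Every interval lies between −0.18 and 0.32, and that of Chac1 is the one that leaves out 0.

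The 10 genes were well expressed in both groups. By FPKM, Atf4 (mean 260.9 over the 6 libraries) and Hspa5 (209.3) lay at the 99.3 and 99.0 percentile of tested genes. Asns (59.3 FPKM), Trib3 (45.0 FPKM), Sdf2l1 (33.0 FPKM) and Chac1 (25.7 FPKM) followed, and Xbp1 (13.4 FPKM), Herpud1 (9.97 FPKM), Ddit3 (7.06 FPKM) and Dnajb9 (6.00 FPKM) were lowest. In this order, neighbouring genes had separate ranges over the 6 libraries except Ddit3 and Dnajb9, which overlapped. The lowest count of any of the 10 genes was 728, for Ddit3 in pcDNA replicate 1, or about 182 fragments. The highest of the 6 libraries was between 1.03 and 1.26 times the lowest for each gene, and the coefficient of variation within a group was between 0.258% and 8.71%.

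**Figure D2:**
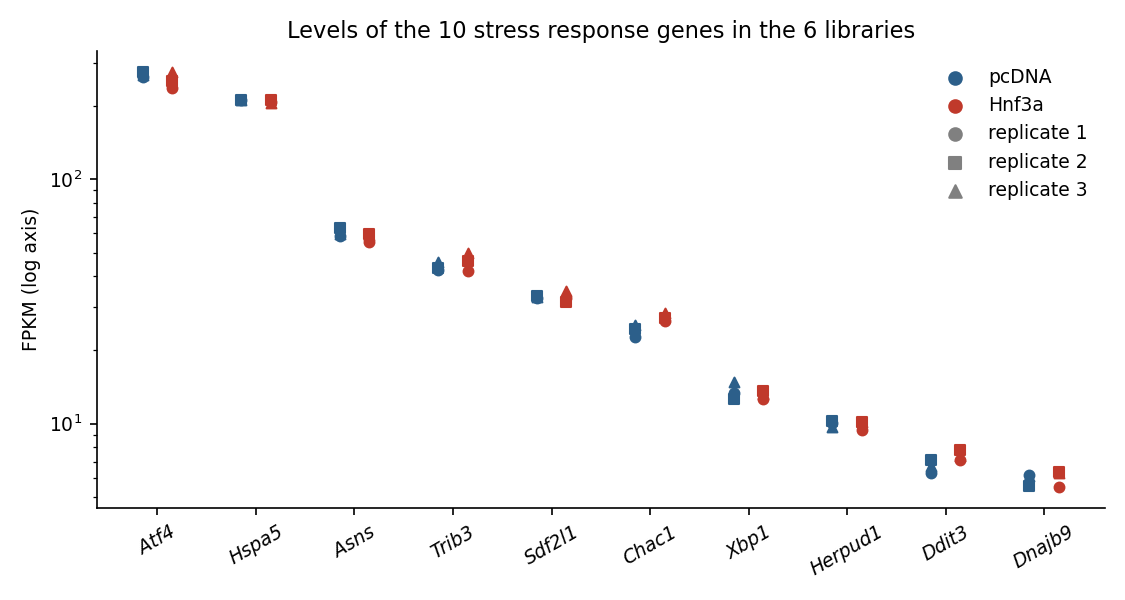
FPKM of the 10 genes on a log axis in each of the 6 libraries, ordered by mean level, with pcDNA in blue, Hnf3a in red and 1 marker shape per replicate number. Levels span from 275.8 FPKM (Atf4) to 5.50 FPKM (Dnajb9), and within each gene the 2 groups sit side by side.

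The integrated stress response is represented by its transcription factors Atf4 and Ddit3 and by 3 of their targets. Atf4 (ENSMUSG00000042406) lies on the plus strand of chromosome 15, 80255184 to 80257541 in GRCm38, and its longest annotated transcript has 1 exon. It encodes the factor through which eIF2α phosphorylation acts on transcription. Its level was 236.5, 252.0 and 275.8 FPKM in Hnf3a replicates 1 to 3 and 261.0, 273.6 and 266.3 FPKM in pcDNA replicates 1 to 3. Hnf3a replicate 1 was the lowest and Hnf3a replicate 3 the highest of the 6, so the Hnf3a libraries spanned the pcDNA range. The fitted fold was 0.949 (95% interval 0.884 to 1.018, log2 fold change −0.076, SE 0.046, edgeR adjusted p = 0.55). Atf4 is the one gene of the 10 whose call rested on single libraries. Without Hnf3a replicate 3 its log2 fold change was −0.135 with an edgeR adjusted p of 0.041, where 2.66% of tested genes passed, and without Hnf3a replicate 1 the log2 fold change was −0.029. Without Hnf3a replicates 2 and 3, the libraries with the fibroblast markers, it was −0.175 with an adjusted p of 0.0233, where 1.67% passed and Hnf3a replicate 1 alone stood for its group. Leaving out any other single library left 0 of the 10 genes past the threshold, against backgrounds of 3.47% and 1.44% without Hnf3a replicates 1 and 2 and of 1.54%, 1.44% and 1.88% without pcDNA replicates 1 to 3. Over all alternatives the adjusted p of Atf4 ranged from 0.0233 to 0.82.

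Ddit3 (ENSMUSG00000025408) encodes CHOP, the factor that links lasting stress to cell death. Its position is chromosome 10, plus strand, 127290774 to 127296288, with 2 exons in its longest annotated transcript. Exon counts given below are likewise those of the longest annotated transcript of any type, and other transcripts of a gene can differ. The span of Ddit3 overlaps another annotated gene model of the same name on the same strand and Gm4189 and Mars on the opposite strand, so some reads may have been assigned among them. Mars (also named Mars1) had a mean of 46.0 FPKM over the 6 libraries, against 7.06 FPKM for Ddit3. Ddit3 stood at 7.13, 7.77 and 7.40 FPKM in the Hnf3a libraries and at 6.27, 7.08 and 6.70 FPKM in the pcDNA libraries. All 3 Hnf3a values were above all 3 pcDNA values, by a gap between 7.08 and 7.13 FPKM. The fitted fold was 1.106 (95% interval 0.981 to 1.246, log2 fold change 0.15, SE 0.080) and did not pass the threshold (edgeR adjusted p = 0.485).

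Chac1 (ENSMUSG00000027313; chromosome 2, plus strand, 119351229 to 119354381, 3 exons) encodes an enzyme that breaks down glutathione and is a target of ATF4. Its promoter stretch with an ATF4 element is printed above. Its level was 26.4, 27.2 and 28.5 FPKM in the Hnf3a libraries and 22.6, 24.4 and 25.3 FPKM in the pcDNA libraries. The groups did not overlap, with the lowest Hnf3a library above the highest pcDNA library. The fitted fold was 1.128 (95% interval 1.045 to 1.219, log2 fold change 0.17, SE 0.052). This was the smallest adjusted p of the 10 genes, 0.105 by edgeR and 0.0556 by DESeq2, neither past the threshold, and it ranged from 0.0556 to 0.468 over the alternatives. Groups without overlap in FPKM were found for 2 of the 10 genes, Ddit3 and Chac1, and for 19.0% of all tested genes.

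Trib3 (ENSMUSG00000032715; chromosome 2, minus strand, 152337422 to 152344032, 4 exons) encodes a pseudokinase that feeds back on ATF4 and CHOP. It was at 42.1, 46.2 and 50.1 FPKM in the Hnf3a libraries and at 42.4, 43.5 and 45.8 FPKM in the pcDNA libraries. The Hnf3a libraries held both the lowest and the highest value. The log2 fold change was 0.063 (95% interval −0.057 to 0.18, edgeR adjusted p = 0.712). Leaving out Hnf3a replicate 1 moved it to 0.12, leaving out Hnf3a replicate 3 to 0.000 and leaving out pcDNA replicate 1 to 0.039, and without Hnf3a replicates 2 and 3 it was −0.061. Asns (ENSMUSG00000029752; chromosome 6, minus strand, 7675169 to 7693254, 12 exons) encodes asparagine synthetase, the textbook amino acid response gene. Its levels were 55.6, 59.9 and 59.1 FPKM in the Hnf3a libraries against 58.7, 63.3 and 59.6 FPKM in the pcDNA libraries. The ranges overlapped, with Hnf3a replicate 1 lowest. The log2 fold change was −0.066 (95% interval −0.15 to 0.017, edgeR adjusted p = 0.516), and it was −0.039 without Hnf3a replicate 1 and −0.032 without pcDNA replicate 2. The 5 genes of this arm thus split, with Ddit3, Chac1 and Trib3 on the higher side and Atf4 and Asns on the lower side, and no call in either direction.

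The unfolded protein response is represented by 5 genes, the transcription factor gene Xbp1 and genes for proteins that work in the endoplasmic reticulum. Hspa5 (ENSMUSG00000026864; chromosome 2, plus strand, 34771970 to 34777547, 9 exons) encodes BiP, the chief Hsp70 chaperone of this compartment and the usual readout of the response. Its stress element is printed above and falls inside the annotated gene span because the RefSeq start lies further downstream. Hspa5 stood at 206.1, 210.9 and 205.7 FPKM in the Hnf3a libraries and at 211.3, 211.5 and 210.5 FPKM in the pcDNA libraries. The highest Hnf3a library lay within the narrow pcDNA range, so the groups overlapped in FPKM, whereas in CPM (counts scaled to library size, with TMM factors) they did not. Groups without overlap on that second scale were found for 3 of the 10 genes and for 18.9% of all tested genes. The fitted fold was 0.978, with a log2 fold change of −0.033 (95% interval −0.085 to 0.019, SE 0.024, edgeR adjusted p = 0.639), the narrowest interval of the 10 genes.

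Xbp1 (ENSMUSG00000020484; chromosome 11, plus strand, 5520659 to 5525893, 5 exons) encodes the transcription factor made active by IRE1. Its level, spliced and unspliced forms together, was 12.6, 13.6 and 13.2 FPKM in the Hnf3a libraries and 13.3, 12.6 and 14.8 FPKM in the pcDNA libraries. The pcDNA libraries were the more spread and covered nearly the whole Hnf3a range. The log2 fold change was −0.055 (95% interval −0.18 to 0.069, edgeR adjusted p = 0.775).

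Herpud1 (ENSMUSG00000031770; chromosome 8, plus strand, 94386438 to 94395377, 8 exons) encodes a membrane protein of the machinery that retrotranslocates misfolded proteins for degradation. It overlaps Gm15890 on the opposite strand, and its promoter stretch holds both an ATF4 element and a stress element. The levels were 9.42, 10.2 and 10.1 FPKM in the Hnf3a libraries and 10.1, 10.2 and 9.71 FPKM in the pcDNA libraries. The ranges overlapped, again with Hnf3a replicate 1 lowest, and the log2 fold change was −0.022 (95% interval −0.15 to 0.10, edgeR adjusted p = 0.931).

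Sdf2l1 (ENSMUSG00000022769; chromosome 16, minus strand, 17130138 to 17132383, 3 exons) encodes a partner of the BiP chaperone complex. Its levels were 32.7, 31.6 and 34.8 FPKM in the Hnf3a libraries and 32.6, 33.2 and 32.9 FPKM in the pcDNA libraries. The Hnf3a libraries lay on both sides of the pcDNA libraries. The fitted log2 fold change was −0.003 (95% interval −0.11 to 0.10, edgeR adjusted p = 0.991). Dnajb9 (ENSMUSG00000014905; chromosome 12, minus strand, 44205559 to 44210326, 3 exons, overlapping Mir5627 on the opposite strand) encodes ERdj4, a co-chaperone that delivers substrates to BiP. It was at 5.50, 6.37 and 6.29 FPKM in the Hnf3a libraries and at 6.19, 5.57 and 6.09 FPKM in the pcDNA libraries. The groups overlapped, and the log2 fold change was 0.016 (95% interval −0.15 to 0.19, edgeR adjusted p = 0.966). The direction of both genes turned under some alternatives. A p that misses the threshold does not show equal levels, and the intervals above give the differences these libraries leave possible.

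**Figure D3:**
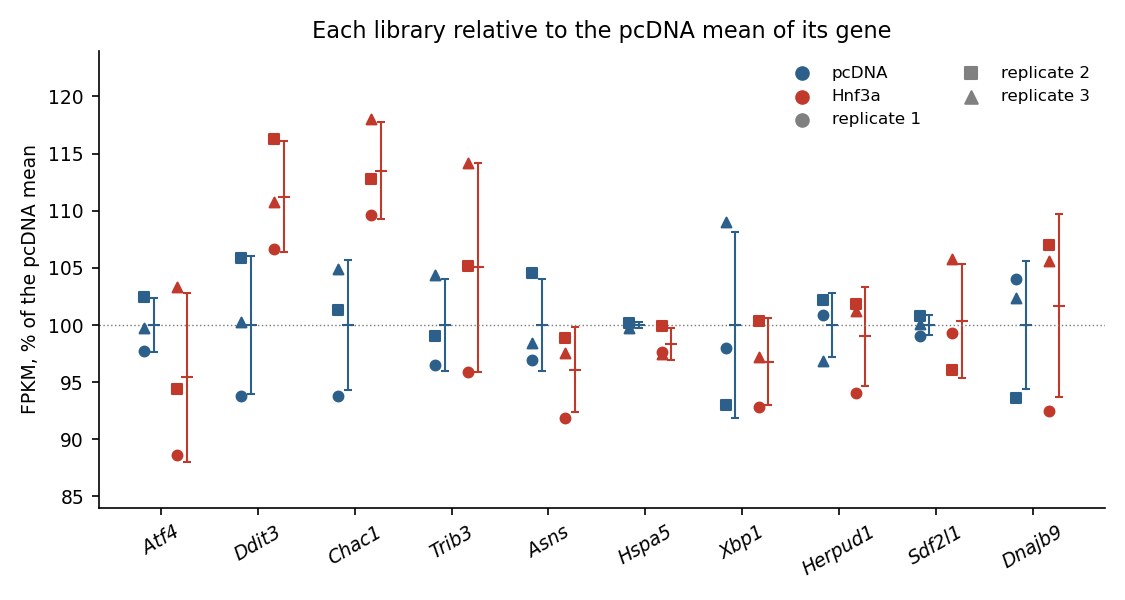
FPKM of each library as a percentage of the pcDNA mean of the same gene, with pcDNA in blue, Hnf3a in red, 1 marker shape per replicate number, and the mean ± SD of each group (bars, n = 3). Ddit3 and Chac1 are the 2 genes whose groups do not overlap, and Hnf3a replicate 1 (red circles) is the lowest Hnf3a library for 8 of the 10 genes. The vertical axis does not start at 0.

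Hnf3a replicate 1 was the lowest of the 3 Hnf3a libraries for 8 of the 10 genes, in FPKM and in scaled CPM, whereas over all tested genes it was the lowest for 38.3% and 35.8%. The summed level of the 10 genes was 634.0, 665.7 and 691.0 FPKM in Hnf3a replicates 1 to 3 and 664.5, 685.0 and 677.8 FPKM in pcDNA replicates 1 to 3. The Hnf3a libraries thus lay on both sides of the pcDNA libraries. Atf4 and Hspa5 made up most of this sum (236.5 and 206.1 FPKM in Hnf3a replicate 1), so it mainly follows these 2 genes.

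The wider pathways were read from 8 lists that together held 153 measured genes other than the 10, of which 151 were tested. Of these, 3 passed the threshold (1.99%, against 3.17% of all tested genes), Creb3l2 and Slc1a4 higher and Klhl24 lower. DESeq2 called 8 (5 higher and 3 lower, against 4.6% of all tested genes), adding Sec63, Spcs3 and Nupr1 on the higher and Ero1l and Stc2 on the lower side, and limma called 0 with either pseudocount. At an unadjusted p under 0.05 there were 23 genes, 18 of them on the higher and 5 on the lower side. This was 15.2% of the 151, against 13.5% of all tested genes, where 1166 lay on the higher and 1245 on the lower side. The median log2 fold change was 0.015, against 0.001 over all tested genes. On the higher side lay 90 genes and on the lower side 61, against 8949 and 8867 of all tested genes. For 145 of the 151 (96.0%) the 95% interval lay inside 0.5 in both directions, against 61.7% of all tested genes. These shares, too, are not matched for level, and neither are the shares of genes past the threshold here and below. With a stricter filter (1 FPKM in 3 libraries), 596 of 12010 tested genes passed.

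Upstream of ATF4, none of 16 tested genes for the eIF2α kinases, eIF2, eIF2B and the eIF2α phosphatase passed by edgeR, DESeq2 or limma (0 at an unadjusted edgeR p under 0.05, median 0.020). Of all tested genes, 3.17%, 4.6% and 1.3% passed by these tools, and 13.5% had such an unadjusted edgeR p. In this list the smallest p belonged to Ppp1r15a (GADD34), the stress-induced phosphatase subunit that ends the response and is itself an ATF4 target. It was at 22.1 ± 1.21 FPKM in the Hnf3a group and 23.5 ± 0.877 FPKM in the pcDNA group (SD, n = 3, log2 fold change −0.096, edgeR adjusted p = 0.373). Eif2b3, a subunit of the exchange factor eIF2B, had a log2 fold change of 0.10 (adjusted p = 0.398), and the most abundant gene of the list, Eif2s2, the β subunit of eIF2, one of −0.056 (adjusted p = 0.506). The PERK gene Eif2ak3 had a log2 fold change of 0.084 (95% interval −0.072 to 0.24, adjusted p = 0.709). Like Ern1 and Atf6 below, it is named for its role, after its values had been seen.

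Among 21 other stress targets of ATF4 and CHOP, 1 passed by edgeR (4.76%, against 3.17% of all tested genes, median −0.011). DESeq2 called 4, Nupr1 higher and Ero1l, Klhl24 and Stc2 lower, where it called 4.6% of all tested genes, and limma called 0. At an unadjusted edgeR p under 0.05 there were 5 (23.8%, against 13.5%), 2 of them higher. Klhl24, a substrate adaptor of a ubiquitin ligase, fell from 2.75 ± 0.207 to 2.29 ± 0.0714 FPKM (SD, n = 3, log2 fold change −0.27, SE 0.062, edgeR adjusted p = 0.0307). Its 3 Hnf3a libraries (2.21 to 2.35 FPKM) lay below its pcDNA libraries (2.56 to 2.97 FPKM). The most abundant, Gdf15, a secreted stress cytokine, was at 110.8 ± 4.73 and 107.5 ± 1.36 FPKM (log2 fold change 0.036, adjusted p = 0.752).

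The amino acid arm held 20 genes for the synthesis and uptake of amino acids. By edgeR 1 passed (5.0%, against 3.17% of all tested genes), as by DESeq2 (against 4.6% of all tested genes), and 0 by limma. At an unadjusted edgeR p under 0.05 there were 6 (30.0%), all on the higher side, where 6.54% of all tested genes lay (median 0.029). Slc1a4, which encodes the neutral amino acid transporter ASCT1, rose from 6.22 ± 0.175 to 7.55 ± 0.365 FPKM (SD, n = 3, log2 fold change 0.27, SE 0.056, edgeR adjusted p = 0.0154). Its Hnf3a libraries were at 7.15, 7.63 and 7.87 FPKM and its pcDNA libraries at 6.41, 6.06 and 6.18 FPKM, without overlap. Phgdh, the first enzyme of serine synthesis and the most abundant of the list, had a log2 fold change of −0.0039 (adjusted p = 0.985). None of 12 aminoacyl-tRNA synthetase genes passed by edgeR, DESeq2 or limma, where 3.17%, 4.6% and 1.3% of all tested genes did. Of the 12, 1 had an unadjusted edgeR p under 0.05 (median −0.002). The log2 fold change was 0.069 for Iars (edgeR adjusted p = 0.356), 0.065 for Gars (adjusted p = 0.398) and −0.033 for the abundant Nars (adjusted p = 0.798).

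The sensors of the unfolded protein response and the related membrane-bound factors numbered 12, of which 11 were tested. By edgeR 1 passed (9.09%, against 3.17% of all tested genes), as by DESeq2 (against 4.6% of all tested genes), and 0 by limma (median 0.040). Creb3l2, a transcription factor held in the membrane of the endoplasmic reticulum until it is cut and known for secretory pathway genes, rose from 3.00 ± 0.0688 to 3.81 ± 0.235 FPKM (SD, n = 3, log2 fold change 0.34, SE 0.060, edgeR adjusted p = 0.00614). Its 3 Hnf3a libraries stood at 3.99, 3.90 and 3.55 FPKM and its pcDNA libraries at 2.96, 2.95 and 3.08 FPKM. The groups were separated by more than the spread within either. Ern1, the IRE1 gene, had a log2 fold change of 0.12 (adjusted p = 0.358), Atf6 one of 0.027 (adjusted p = 0.885), and Atf6b, the most abundant of the list, one of 0.041 (adjusted p = 0.731).

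Downstream, 0 of 27 chaperones and folding enzymes, 0 of 20 tested genes of endoplasmic reticulum associated degradation and 0 of 28 genes of translocation, signal peptide cleavage and vesicle coats passed by edgeR, where 3.17% of all tested genes did. At an unadjusted p under 0.05 there were 2, 1 and 6 (7.41%, 5.0% and 21.4%, against 13.5% of all tested genes). DESeq2 called 1, 0 and 2, where it called 4.6% of all tested genes. Of the chaperones, 20 lay on the higher and 7 on the lower side (median 0.034), against 8949 and 8867 of all tested genes. Groups without overlap in FPKM were found for 7 of the 27, against 19.0% of all tested genes. The summed level of the chaperones was 1561 to 1576 FPKM in the Hnf3a libraries and 1524 to 1548 FPKM in the pcDNA libraries, which is without overlap and was not tested. The most abundant chaperones weigh most in this sum, so it does not describe the list as a whole. Hsp90b1 (GRP94), the most abundant of them, was at 259.4 ± 3.08 and 252.9 ± 5.25 FPKM (SD, n = 3, log2 fold change 0.028, edgeR adjusted p = 0.719). Ero1l, the oxidase that renews disulphide bonds and which is also a CHOP target, had the smallest p of that list with a log2 fold change of −0.15 (adjusted p = 0.0808, and 0.0353 by DESeq2), and Creld2 followed with 0.11 (adjusted p = 0.24).

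In the degradation list (median 0.003), the lectin gene Erlec1 had a log2 fold change of −0.15 (edgeR adjusted p = 0.219), the mannosidase-like Edem1 one of 0.094 (adjusted p = 0.37) and the abundant ATPase Vcp one of −0.0093 (adjusted p = 0.951). In the translocation list (median 0.022), the 6 genes at an unadjusted p under 0.05 were all on the higher side (21.4%, against 6.54% of all tested genes on that side). Sec63, the translocon partner that recruits BiP, was at 10.7 ± 0.243 FPKM against 9.75 ± 0.168 FPKM (SD, n = 3, log2 fold change 0.13, edgeR adjusted p = 0.0578). Spcs3, a signal peptidase subunit, was at 28.3 ± 0.31 FPKM against 25.6 ± 1.06 FPKM (log2 fold change 0.14, adjusted p = 0.0742). Both missed the threshold here and passed by DESeq2 (adjusted p = 0.0262 and 0.0316). The abundant Ssr2, of the translocon-associated complex, had a log2 fold change of −0.059 (adjusted p = 0.657).

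**Figure D4:**
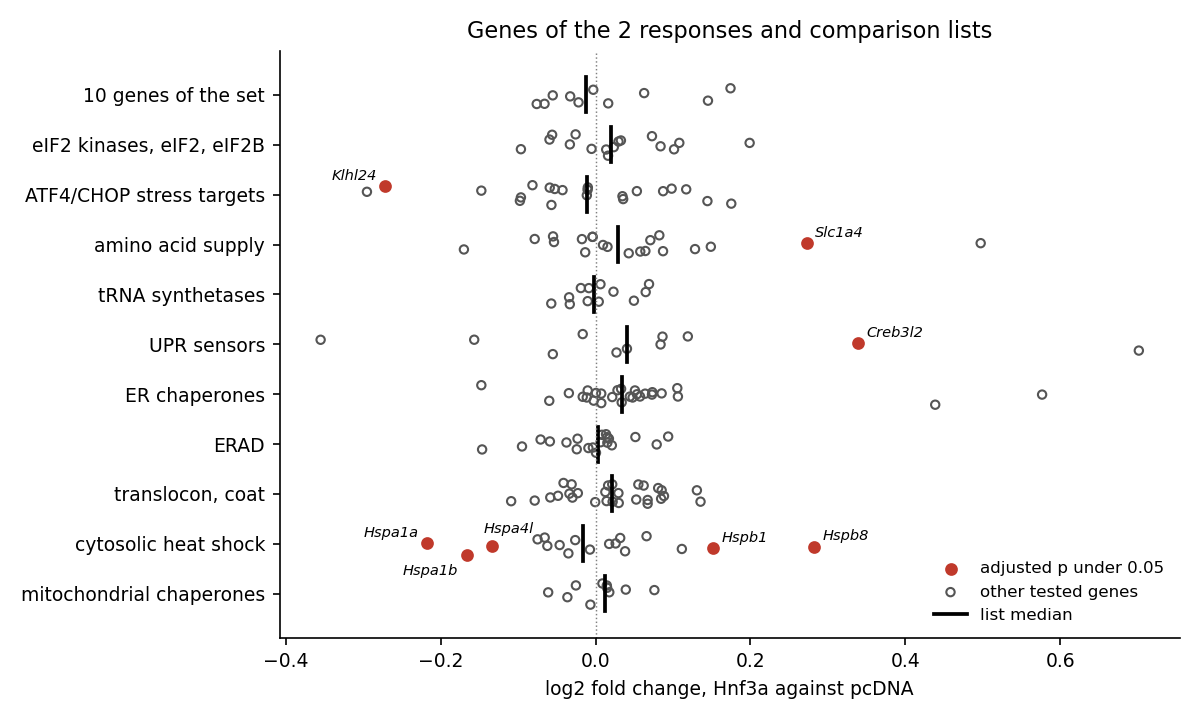
Fitted log2 fold change, Hnf3a against pcDNA, of every tested gene in the 10-gene set and in 10 pathway and comparison lists (1 circle per gene, shifted vertically at random within its list), with genes past the edgeR threshold filled and named and the list median as a black bar. The medians lie between −0.017 and 0.040, and filled circles appear in 4 of the lists. UPR, unfolded protein response; ERAD, endoplasmic reticulum associated degradation.

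Another pair of lists, of other folding responses, served for comparison. Of 18 cytosolic heat shock genes, 5 passed (27.8%, against 3.17% of all tested genes), 2 higher and 3 lower, with a median of −0.017. DESeq2 called these 5 and Dnaja1, where it called 4.6% of all tested genes, and limma called 0. Hspb1, a small heat shock protein that holds unfolded proteins in solution, rose from 389.7 ± 1.78 to 435.3 ± 12.3 FPKM (SD, n = 3, log2 fold change 0.15, SE 0.030, edgeR adjusted p = 0.0133), and Hspb8, another of that family, from 13.8 ± 0.676 to 16.8 ± 0.978 FPKM (log2 fold change 0.28, SE 0.058, adjusted p = 0.0158). Hspa1a, Hspa1b and Hspa4l went the other way, with the Hsp70 genes Hspa1a at −0.22 (SE 0.052, adjusted p = 0.039) and Hspa1b at −0.17 (SE 0.036, adjusted p = 0.023), and Hspa4l, a cofactor of Hsp70, at −0.13 (SE 0.032, adjusted p = 0.0381). Hspa1a and Hspa1b are near-identical copies between which reads can be split, so their separate values are uncertain. The most abundant of the list, Hsp90ab1, was at 1156 ± 12.5 and 1171 ± 7.01 FPKM (adjusted p = 0.672). Of 10 mitochondrial chaperones and proteases none passed by edgeR, DESeq2 or limma, where 3.17%, 4.6% and 1.3% of all tested genes did. In that list, 1 had an unadjusted edgeR p under 0.05 (median 0.012). Yme1l1, a protease of the inner membrane, was at a log2 fold change of 0.076 (adjusted p = 0.287), Trap1, the mitochondrial Hsp90, at −0.061 (adjusted p = 0.46) and the abundant Hspd1 (Hsp60) at 0.015 (adjusted p = 0.895).

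These calls in the lists were not equally firm. Of 16 alternatives, Creb3l2 stayed past the threshold in 12, Hspb1 in 11, Hspb8 in 10, Slc1a4 in 9, Hspa1b and Klhl24 in 7, Hspa1a in 6 and Hspa4l in 5, and none of these genes changed direction. By limma on log2(FPKM + 0.1) none of the 8 passed. Leaving out single libraries also ended calls. Without Hnf3a replicate 2 the adjusted p was 0.0563 for Creb3l2, 0.084 for Slc1a4, 0.109 for Klhl24 and 0.111 for Hspb8, and without pcDNA replicate 2 it was 0.0566 for Creb3l2, 0.101 for Slc1a4, 0.108 for Hspb8 and 0.109 for Hspb1. Klhl24 was at 0.0716, 0.0669, 0.118 and 0.143 without Hnf3a replicate 1, Hnf3a replicate 3, pcDNA replicate 1 and pcDNA replicate 3. Slc1a4 was at 0.0541 without Hnf3a replicate 3 and at 0.0647 without pcDNA replicate 3, Hspb8 at 0.107 without pcDNA replicate 1, and Hspb1 at 0.0751 and 0.071 without pcDNA replicates 1 and 3. The 3 lowered Hsp70-related genes lost their call without any 1 library except Hnf3a replicate 1, and Hspa4l without that library too (adjusted p between 0.0542 and 0.21). Without both Hnf3a replicates 2 and 3, Creb3l2 and Hspb1 of the genes named in this paragraph stayed past the threshold.

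The Gene Ontology terms carried by the table itself gave counts that did not rest on hand-made lists, with 9 of the 10 stress genes among those annotated. Of 72 tested genes annotated to the response to endoplasmic reticulum stress, 1 passed (1.39%, against 3.17% of all tested genes), Creb3l2, with 13 at an unadjusted p under 0.05 (18.1%, against 13.5%) and a median of 0.008. Of 46 tested genes of the endoplasmic reticulum unfolded protein response 2 passed (4.35%), Creb3l2 and Ccnd1 (cyclin D1, mean 141.8 FPKM, log2 fold change −0.11, SE 0.026, edgeR adjusted p = 0.0355). None of 36 genes of apoptosis in response to endoplasmic reticulum stress passed by edgeR, with 8 at an unadjusted p under 0.05 (22.2%, against 13.5%), while DESeq2 called 2, Casp4 and Ero1l, both lower. Over all 160 tested genes with a term that names either response, 2 passed (1.25%, against 3.17% of all tested genes), DESeq2 called 8 (where it called 4.6% of all tested genes) and limma 0, 24 had an unadjusted p under 0.05 (15.0%, against 13.5%), and the median log2 fold change was 0.013.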

How the data were processed

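RNA was sequenced from TKPTS cells transfected with the HNF3α plasmid (3 libraries) or the Flag plasmid (3 libraries). Groups and replicate numbers came from the labels. Per the labels, poly(A) RNA was made into strand-marked libraries with molecular identifiers. The submitters' processing notes name cutadapt 1.9, HISAT2 2.0.4, UMI-tools, StringTie 1.3.4d, DESeq2, edgeR and the mm10 build, without their order. The use of strand in counting is not given in the sources used here. The authors deposited, per gene, an estimated count and an FPKM value in every library. Estimated counts are whole and pile up at 4, so 1 fragment was taken as about 4 counts. Coordinates equalled those in GENCODE vM21 for 25765 of the 29514 genes found in both, so overlaps were read there. The exon count of each gene is that of its longest transcript there.

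The 10 genes, the lists and the rule for naming genes were chosen with earlier results of these data known. Counts were filtered (filterByExpr), scaled by TMM and tested two-sided with edgeR 4.0.16 (glmQLFit, robust, no covariate) in R 4.3.3, with Benjamini-Hochberg adjustment over 17824 genes and a threshold of 0.05. Each SE is |log2 fold change| over the square root of F, and 95% intervals used the t distribution of the fit. From each list, at most 3 higher and 3 lower genes past the threshold with the smallest p were named, otherwise the 2 with the smallest p, and the most abundant. Alternatives were DESeq2 size factors, total-count scaling, other filters, the Wald test of DESeq2 1.42.0, limma 3.58.1 with trend on log2(FPKM + 0.1) and log2(FPKM + 1), counts divided by 4, the replicate number as a block, and leaving out each library. Leaving out Hnf3a replicates 2 and 3 was added after seeing the data. On the limma scale, log2(FPKM + pseudocount), changes of low genes come out too small. The tests of edgeR, DESeq2 and limma were first tried on simulated counts, limma with a pseudocount of 0.1 on counts scaled to library size. Limma with a pseudocount of 1, the block and the fits with libraries left out were not tried in this way. Intervals cover the spread between libraries as modelled. Each of the 10 genes had 728 counts or more in every library. Depth is not the only limit on precision. The spread within the Hnf3a group exceeded counting error most clearly for Atf4 and Trib3. By a smaller margin it also did so for Asns, Hspa5, Xbp1, Sdf2l1 and Dnajb9, but not for Ddit3, Chac1 and Herpud1.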

Additional observations from a re-analysis of the deposited data

How the results depend on the processing

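Of the 10 stress genes, 0 passed under all alternatives but 2, and when single libraries were left out the count ranged from 0 to 1. Among all tested genes, 565 passed, against 236 and 231 by limma with pseudocounts of 0.1 and 1 and 322 without Hnf3a replicates 2 and 3. Leaving out single libraries gave 263 to 643 genes. Of the 10 lists together 8 genes passed (4 higher, 4 lower), against 14 by DESeq2, 0 and 0 by limma with either pseudocount, 4 without Hnf3a replicates 2 and 3, and 1 to 6 without single libraries. Total-count scaling gave 9 (7 higher, 2 lower), while it moved the median log2 fold change of all tested genes only to 0.0126. The stricter filter gave 12 (8 higher, 4 lower) of 173 tested, where 596 of 12010 genes of the whole table passed. The 10 lists held 179 tested genes in the main fit, and of all tested genes 3.17% passed by edgeR and 4.6% by DESeq2. Without Hnf3a replicates 2 and 3, which leaves 1 Hnf3a library that is assumed to vary like the pcDNA libraries, Atf4 passed, and the sign turned for Trib3 (−0.061), Dnajb9 (−0.113) and Gdf15 (−0.029). The sign of Sdf2l1 turned with total-count scaling (0.009), no filter (0.001), the stricter filter (0.003) and limma (0.004 with either pseudocount). That of Phgdh turned with total-count scaling (0.008), the stricter filter (0.002) and limma (0.004 with either pseudocount), and that of Vcp with total-count scaling (0.003). Without single libraries, log2 fold changes crossed 0 for Dnajb9 (−0.029 to 0.076), Sdf2l1 (−0.041 to 0.032), Xbp1 (−0.105 to 0.010), Herpud1 (−0.045 to 0.010), Phgdh (−0.034 to 0.024), Vcp (−0.027 to 0.010), Hspd1 (−0.003 to 0.025) and Nars (−0.065 to 0.003). The cause of these changes was not tested.

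With the replicate number as a block, 0 of the 10 stress genes, 4 genes of the lists (4 higher, 0 lower) and 463 genes of the whole table passed. Over all tested genes, libraries of the same number did not deviate together (correlation of deviations −0.041, −0.010 and 0.010). Such a correlation would miss a shared culture or preparation that touched few genes. The labels do not say whether same-numbered libraries shared either, and this was not tested.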
